A study of Mus musculus with 16 samples.

Results

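The genes described here are those of the plasminogen activator system: the proteases Plau (urokinase) and Plat (tissue plasminogen activator), the urokinase receptor Plaur, and the inhibitors Serpine2 and Serpinb2. They were chosen by name and are 5 of the 25745 genes in the count table. All 5 were among the 14445 genes with enough counts to be tested. RNA-seq was done on 6DT1, a mouse mammary cancer cell line of strain FVB/N1, that had received a lentivirus carrying CLIC4 or an empty vector. Clic4 encodes a chloride intracellular channel protein that the series title describes as an oxidoreductase. Each kind of cell was left untreated or was given 1 µM hydrogen peroxide (H2O2) for 24 h, with 4 libraries in each of the 4 groups. Libraries 1 to 4 were untreated and 5 to 8 treated CLIC4 lentivirus cells, and libraries 9 to 12 were untreated and 13 to 16 treated empty vector cells. The sample descriptions call the empty vector cells CLIC4 knockouts and the lentivirus cells wildtype, whereas the text of the series names only vectors, so the vector names are used here. The labels do not say whether a vector line was 1 clone or whether libraries came from separate cultures. The p-values therefore measure the spread between these libraries, which may be technical, and any difference between the lines other than the vector cannot be told apart from the vector.

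Plasminogen is an inactive precursor made mainly by the liver, and both urokinase and tissue plasminogen activator cut it into plasmin, a serine protease that dissolves fibrin and degrades extracellular matrix. The urokinase receptor is anchored in the outer membrane by a lipid and holds urokinase at the cell surface. Serpins stop these proteases by forming a covalent complex with them. Serpine2 (protease nexin-1) inhibits thrombin, both activators and plasmin, and Serpinb2 inhibits urokinase and is found largely inside the cell. In mammary tumours the system is known for its part in invasion and tissue remodelling.

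The libraries held 47.1 M to 61.9 M counts. Library 11 differed from libraries 9, 10 and 12, which also came from untreated empty vector cells. Its highest correlation with any of these, over log2 CPM (counts scaled to library depth) of all tested genes, was 0.9222. Its correlations with libraries of other treatments or vectors were not examined. Among the remaining libraries, the lowest correlation within a group was 0.9936. The tests of the 5 genes are therefore given with all 16 libraries and without library 11, as are the counts over gene lists. Clic4 FPKM (fragments scaled to gene length and library depth) ran from 56.3 to 62.8 in untreated and 60.2 to 66.5 in treated lentivirus cells. In empty vector cells it ran from 10.8 to 11.8 untreated, with 25.4 in library 11, and from 10.5 to 12.0 treated, so the level followed the vector labels. The table has 1 Clic4 row and does not separate a vector's transcript from the cell's own. Of 5 mammary epithelial markers, the keratins Krt8, Krt18 and Krt19 exceeded 1 FPKM in all groups. Epcam (at most 0.02 FPKM) and Cdh1 (at most 0.04 FPKM) were at or near 0 outside library 11, where they reached 6.08 and 0.26. The summed FPKM of the epithelial markers moved with the vector, from 370 to 406 in lentivirus cells and from 650.1 to 720.3 in empty vector cells, with 804 in library 11. The 8 monocyte and macrophage markers summed to 81.7 to 98.5 in lentivirus cells and 234 to 270.1 in empty vector cells, with 276 in library 11. Nearly all of that sum was Cd68. Cd14 was at 4.79 to 6.09 FPKM in lentivirus and 8.49 to 9.77 in empty vector cells, and Itgam at 0.05 or less and 0.97 to 1.18 (8.40 and 0.16 in library 11). The defining markers Ptprc, Adgre1 and Tyrobp were at 0.05 FPKM or less in every library. Csf1r was at 0.01 or less except in library 11 (4.78). The 6 fibroblast markers summed to 3.20 to 4.43 in lentivirus and 3.00 to 4.00 in empty vector cells (5.19 in library 11), with members that differed in opposite directions. Dcn was at 1.12 to 1.58 FPKM in lentivirus and 0.03 to 0.10 in empty vector cells, Col1a1 at 1.27 to 1.91 and 0.38 to 0.68, and Pdgfra at 0.67 to 0.97 and 2.38 to 3.27, library 11 left out. The 4 endothelial markers in the table summed to 21.3 to 23.0 and 1.00 to 1.34 (2.00 in library 11), nearly all of it Cdh5 in lentivirus cells. The part of these markers in the results was not tested. In bulk RNA, fewer cells of a type and less RNA per cell cannot be told apart.

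The genes lie on 4 chromosomes of the mm10 build, as protein-coding genes of GENCODE vM21. Plau lies at chr14:20836660-20843385 on the plus strand, Plat at chr8:22757727-22782844 on the plus strand and Plaur at chr7:24462484-24475968 on the plus strand. Serpine2 lies at chr1:79794197-79861180 on the minus strand and Serpinb2 at chr1:107511423-107535478 on the plus strand. Serpinb2 overlaps Serpinb10 on the same strand, a gene with 4 counts over all 16 libraries, and the other 4 genes overlap no annotated gene. RefSeq start-site windows (GRCm38.p6) matched 3 of the 5 genes, and Plau and Plat had no entry in the table. The sequences upstream of these starts are shown because the genes moved in different directions between the vectors, with Plaur and Serpinb2 on one side and Serpine2 on the other. They are written 5′ to 3′ on the gene's strand, with capitals marking matches on either strand to the AP-1 motif TGANTCA, the GC box GGGCGG and the TATA box TATAAA. The windows are chr7:24462233-24462482 (plus) for Plaur, chr1:79858697-79858915 (minus) for Serpine2 and chr1:107511173-107511422 (plus) for Serpinb2. Those of Plaur and Serpinb2 end just before the annotated gene. The Serpine2 window lies inside the annotated gene, whose 5′ end is at 79861180, so it belongs to a RefSeq start within the gene.
Plaur: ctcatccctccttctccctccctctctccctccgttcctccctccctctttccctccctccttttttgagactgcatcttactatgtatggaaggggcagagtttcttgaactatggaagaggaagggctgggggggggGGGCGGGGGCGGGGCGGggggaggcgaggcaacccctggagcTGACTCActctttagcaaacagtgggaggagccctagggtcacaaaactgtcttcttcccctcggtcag
Serpine2: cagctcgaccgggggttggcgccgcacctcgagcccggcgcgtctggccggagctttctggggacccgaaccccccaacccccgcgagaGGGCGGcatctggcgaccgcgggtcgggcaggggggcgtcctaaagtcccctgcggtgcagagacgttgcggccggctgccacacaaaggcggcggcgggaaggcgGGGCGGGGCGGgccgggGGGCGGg
Serpinb2: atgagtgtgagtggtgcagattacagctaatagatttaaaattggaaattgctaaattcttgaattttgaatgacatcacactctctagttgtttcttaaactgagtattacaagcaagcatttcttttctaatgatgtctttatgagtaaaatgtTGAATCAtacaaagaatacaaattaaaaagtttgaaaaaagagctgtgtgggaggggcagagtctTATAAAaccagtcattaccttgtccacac
The Plaur window held 1 AP-1 match (TGACTCA), starting at -69 from the RefSeq start, and 3 GC boxes, which adjoin or overlap. The Serpinb2 window held 1 AP-1 match (TGAATCA) starting at -94 and 1 TATA box starting at -29, and no GC box. The Serpine2 window held 4 GC boxes, of which 2 overlap, and neither of the other motifs. Its bases nearest the start were left out because they overlap an annotated exon. A TATA box placed as in Serpinb2, at -29, could therefore not have been found there. Among 32851 RefSeq windows cut to 250 bases, 6.75% held the AP-1 motif, 32.7% the GC box and 12.4% the TATA box, and among windows cut to 219 bases, the length for Serpine2, the shares were 6.08%, 28.3% and 9.92%. These matches describe letters in a window and are not measured binding sites.

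The vector comparison asked how the transcripts of this system differed between cells with and without the CLIC4 lentivirus. Both activators, the receptor and Serpinb2 were higher in empty vector cells than in CLIC4 lentivirus cells, and Serpine2 was lower once library 11 was left out. Without that library, the untreated difference was 2.68-fold for Plau, 3.09-fold for Plat, 2.40-fold for Plaur and 8.47-fold for Serpinb2, all higher with the empty vector, and Serpine2 was 3.25-fold lower. In untreated cells, edgeR's quasi-likelihood test with Benjamini-Hochberg adjustment called 4 of the 5 genes higher and 0 lower with 16 libraries (adjusted p under 0.05). Serpine2, the gene not called, had an unadjusted p of 0.806. The test called 53.3% of all tested genes in this comparison, 29.0% higher and 24.3% lower, so the call alone does not set these genes apart. Without library 11 it called 4 higher and 1 lower, beside 74.4% of all genes (37.0% higher and 37.3% lower). In H2O2-treated cells 4 were called higher and 1 lower both with 16 libraries, beside 42.1% of all genes (22.1% higher and 20% lower), and without library 11, beside 73.8% (36.6% higher and 37.2% lower). In the treated cells, which do not include library 11, the vectors did not overlap in any of the 5 genes, nor in 69.4% of all tested genes. In untreated cells with 16 libraries the vectors did not overlap in 4 of the 5 genes, beside 49.6% of all tested genes. Without library 11 they did not overlap in any of the 5, beside 72.1% of all tested genes with no overlap.

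**Figure D1:**
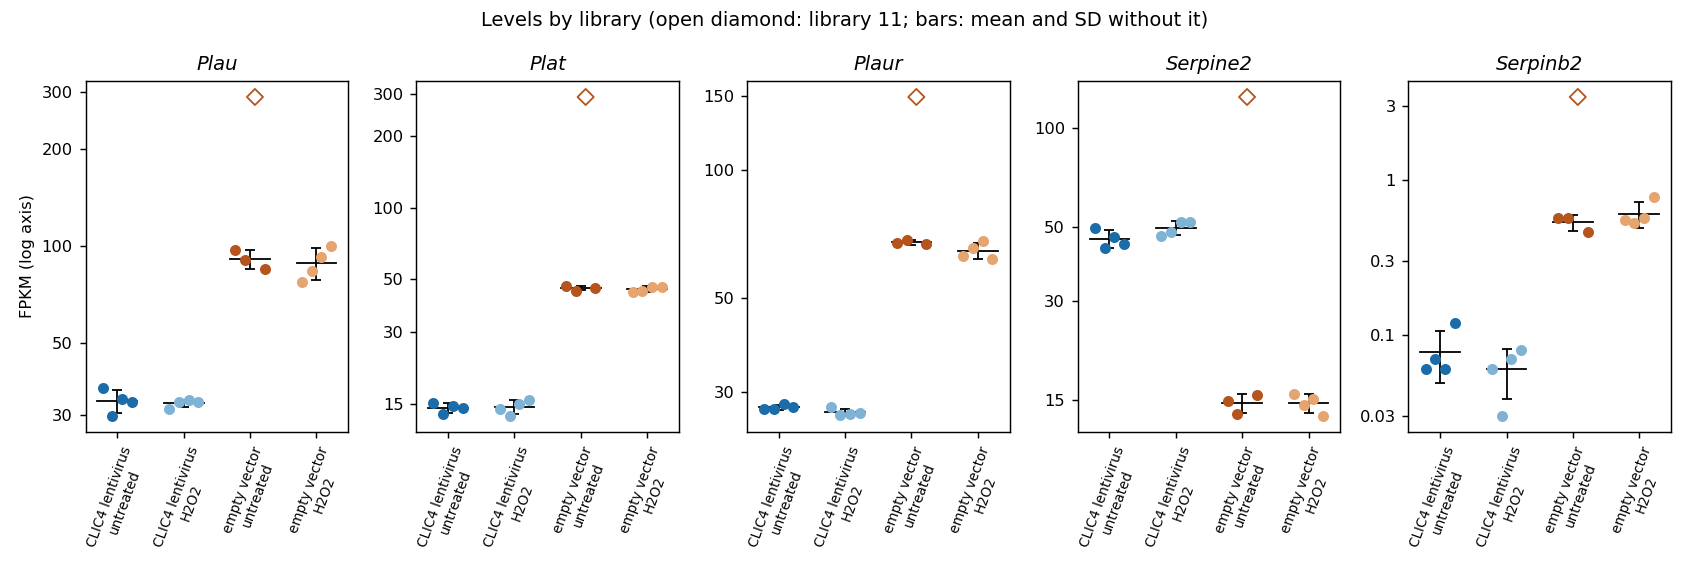
FPKM (log axis) of the 5 genes in each library by group, with bars for the mean and SD without library 11, which is drawn as an open diamond. Empty vector libraries lie above lentivirus libraries for Plau, Plat, Plaur and Serpinb2, and below them for Serpine2 except library 11 at 124 FPKM.

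Plau encodes urokinase, the activator that acts at the cell surface. In untreated lentivirus cells its FPKM was 36.3, 29.8, 33.6 and 32.8 in libraries 1 to 4, and in treated lentivirus cells 31.4, 32.8, 33.3 and 32.8 in libraries 5 to 8. In empty vector cells it was 97.5, 90.6, 290.3 and 85.3 in libraries 9 to 12 untreated and 77.7, 83.8, 92.6 and 100.5 in libraries 13 to 16 treated. All 8 empty vector libraries exceeded all 8 lentivirus libraries, and library 11 was the highest of all. The untreated log2 difference was 2.34 ± 0.42 (SE, adjusted p 0.000344 by edgeR) with 16 libraries and 1.42 ± 0.08 (adjusted p 7.28e-10) without library 11. In treated cells it was 1.42 ± 0.41 (adjusted p 0.0112) and, without library 11, 1.42 ± 0.08 (adjusted p 3.45e-10). Among genes above 0.5 FPKM in a group, library 11 left out, Plau exceeded 76.5% in untreated lentivirus cells and 91.4% in untreated empty vector cells.

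Plat encodes tissue plasminogen activator, best known for dissolving fibrin clots in blood vessels. Its FPKM was 15.1, 13.6, 14.7 and 14.4 in untreated and 14.2, 13.3, 15.0 and 15.6 in treated lentivirus cells. In untreated empty vector cells it was 46.8, 44.9, 291.8 and 46.1, and in treated ones 44.1, 44.8, 46.5 and 46.5. Apart from library 11, the empty vector libraries lay within 44.1 to 46.8, and no library of 1 vector reached the range of the other. The untreated log2 difference was 3.23 ± 0.63 (SE, adjusted p 0.000673 by edgeR) with 16 libraries and 1.63 ± 0.04 (adjusted p 4.61e-17) without library 11. In treated cells it was 1.62 ± 0.59 (adjusted p 0.0392) and 1.62 ± 0.04 (adjusted p 1.7e-17) without library 11. The 16-library call in treated cells was lost when any one of libraries 5 to 8 or 13 to 16 was left out (adjusted p 0.0621 to 0.0855 by edgeR), with the log2 difference between 1.59 and 1.66 in all the fits that left out 1 library.

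Plaur encodes the urokinase receptor, and it had the smallest spread between libraries of the 5 genes in lentivirus cells. Its FPKM was 27.4, 27.4, 28.1 and 27.7 in untreated and 27.7, 26.5, 26.6 and 26.8 in treated lentivirus cells. Empty vector cells had 67.3, 68.6, 149.0 and 67.1 untreated and 62.9, 65.7, 68.1 and 61.7 treated. Every empty vector library thus exceeded every lentivirus library. The untreated log2 difference was 1.85 ± 0.29 (SE, adjusted p 0.000121 by edgeR) with 16 libraries and 1.26 ± 0.04 (adjusted p 3.88e-16) without library 11. In treated cells it was 1.24 ± 0.29 (adjusted p 0.00296) and 1.24 ± 0.04 (adjusted p 1.79e-16) without library 11.

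Serpine2 encodes a secreted serpin that inhibits both activators. Its FPKM was 49.8, 43.3, 46.6 and 44.5 in untreated and 47.1, 48.3, 51.8 and 52.0 in treated lentivirus cells. In empty vector cells it was 14.9, 13.7, 123.9 and 15.6 untreated and 15.7, 14.5, 15.1 and 13.4 treated. Library 11 therefore lay above all 8 lentivirus libraries, and the other 7 empty vector libraries lay below all of them. With 16 libraries the untreated log2 difference was 0.16 ± 0.64 (SE, adjusted p 0.843 by edgeR), with a 95% interval from -1.20 to 1.52. Without library 11 it was -1.70 ± 0.06 (adjusted p 7.4e-15), so this 1 library decided both the direction and the call in edgeR. The direction with 16 libraries also depended on the method. On log2(FPKM + 1) the untreated difference was -0.83, with a limma adjusted p of 0.182. In treated cells the difference was -1.78 ± 0.66 (adjusted p 0.0418) with 16 libraries and -1.77 ± 0.05 (adjusted p 7.32e-16) without library 11. The 16-library call in treated cells was lost when any one of libraries 1 to 8 or 13 to 16 was left out (adjusted p 0.053 to 0.0916 by edgeR), with the log2 difference between -1.81 and -1.73 in all the fits that left out 1 library. The share of expressed genes below Serpine2 was 83.6% in untreated lentivirus cells and 51.0% in untreated empty vector cells without library 11.

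Serpinb2, the intracellular urokinase inhibitor, was the least abundant of the 5. Lentivirus libraries held 2 to 7 counts each, 23 over the untreated and 19 over the treated group, and FPKM of 0.06, 0.07, 0.06 and 0.12 untreated and 0.06, 0.03, 0.07 and 0.08 treated. Empty vector libraries had 0.57, 0.57, 3.44 and 0.46 FPKM untreated and 0.55, 0.53, 0.57 and 0.78 treated, from 42 to 76 counts each and 327 in library 11. The vectors did not overlap in either condition, although both levels were low. The untreated log2 difference was 4.69 ± 0.77 (SE, adjusted p 0.000173 by edgeR) with 16 libraries and 3.08 ± 0.28 (adjusted p 4.31e-09) without library 11. In treated cells it was 3.62 ± 0.78 (adjusted p 0.00168), a 12.3-fold difference, and 3.62 ± 0.27 (adjusted p 2.28e-10) without library 11. Its size depends on few counts in the lentivirus cells, and on log2(FPKM + 1), which understates the change of low genes, the treated difference was 0.60 with a limma adjusted p of 0.0849.

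Set against all tested genes without library 11, the sizes of the untreated differences were in the upper part of the range. The share of genes with a smaller absolute change was 84.5% for Plaur, 86.7% for Plau, 88.9% for Plat, 89.5% for Serpine2 and 95% for Serpinb2. In treated cells the same shares were 84.7% for Plaur, 87.1% for Plau, 89.1% for Plat, 90.3% for Serpine2 and 96.4% for Serpinb2. The median log2 difference of the 5 genes was 1.42 in both conditions without library 11, beside -0.02 and -0.01 over all tested genes. With 16 libraries the untreated median was 2.34, beside 0.03 over all tested genes.

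FPKM values are scaled to gene length, so levels of different genes can be set beside each other. In all 8 lentivirus libraries the order from high to low was Serpine2, Plau, Plaur, Plat and Serpinb2. In 7 of 8 empty vector libraries it was Plau, Plaur, Plat, Serpine2 and Serpinb2, with the secreted inhibitor below both activators. In library 11 the order was Plat, Plau, Plaur, Serpine2 and Serpinb2. Within each group, library 11 left out, the ranges of neighbours in this order did not overlap. The closest were Plau (lowest library 29.8 FPKM) and Plaur (highest library 28.1 FPKM) in untreated lentivirus cells.

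The ratio of activator to inhibitor transcripts followed from these levels and was not tested separately. The Plau to Serpine2 FPKM ratio was 0.719 ± 0.022 (SD, n = 4) in untreated and 0.655 ± 0.021 (n = 4) in treated lentivirus cells. It was 6.21 ± 0.64 (n = 3, without library 11) in untreated and 6.09 ± 1.05 (n = 4) in treated empty vector cells, and 2.34 in library 11. Urokinase transcripts thus lay below those of the inhibitor in every lentivirus library and above them in every empty vector library. The Plat to Serpine2 ratio was 0.314 ± 0.008 and 0.292 ± 0.012 in untreated and treated lentivirus cells (n = 4 each). It was 3.13 ± 0.16 (n = 3, without library 11) and 3.11 ± 0.27 (n = 4) in untreated and treated empty vector cells, and 2.36 in library 11. Library 11, which stood above the lentivirus cells in all 5 transcripts, was on the empty vector side in both ratios. The ratio of the activators to each other differed less between the vectors: Plau to Plat was 2.29 ± 0.09 and 2.25 ± 0.15 in lentivirus cells, 1.98 ± 0.12 and 1.95 ± 0.17 in empty vector cells without library 11, and 0.995 in library 11. Plau to its receptor Plaur was 1.20 ± 0.10 and 1.21 ± 0.05 in lentivirus cells, 1.35 ± 0.09 and 1.37 ± 0.18 in empty vector cells without library 11, and 1.95 in library 11.

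**Figure D2:**
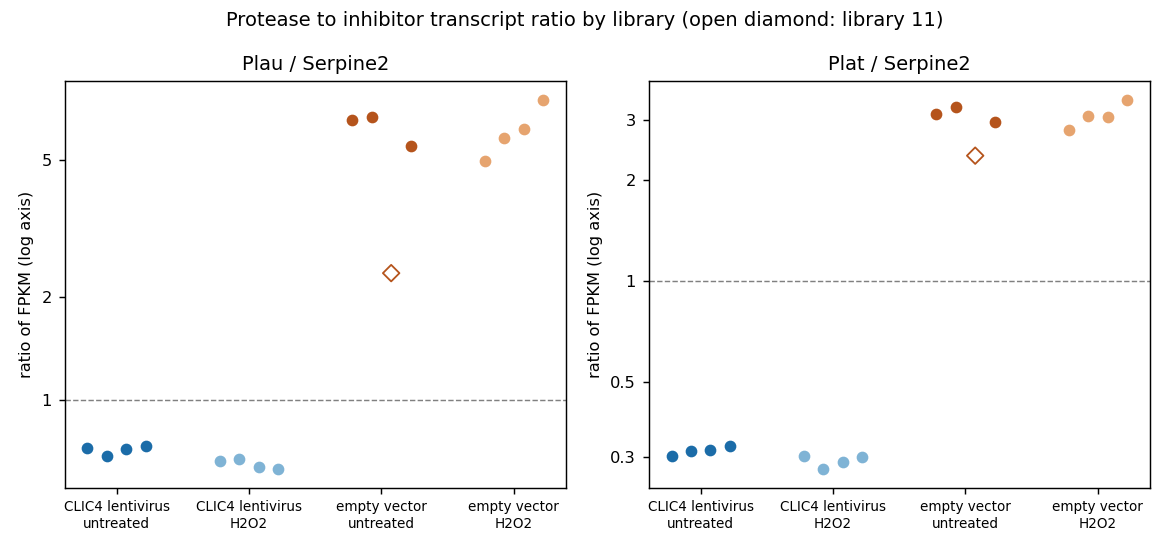
Ratio of Plau (left) and Plat (right) FPKM to Serpine2 FPKM in each library by group, on a log axis, with a dashed line at a ratio of 1 and library 11 as an open diamond. All 8 lentivirus libraries lie below 1 in both panels and all 8 empty vector libraries lie above it.

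The treatment comparisons asked whether 24 h of H2O2 moved these transcripts in either kind of cell. None of the 5 passed the test in lentivirus cells, in empty vector cells or for the difference between the 2 responses. Treated and untreated libraries overlapped in all 5 genes within each vector, beside 11.2% of all tested genes with no overlap in lentivirus cells and 6.93% in empty vector cells (12.8% without library 11). In lentivirus cells the log2 changes (treated minus untreated, 16 libraries, edgeR) were -0.04 ± 0.40 (SE) for Plau, -0.01 ± 0.58 for Plat, -0.05 ± 0.28 for Plaur, 0.03 ± 0.64 for Serpine2 and -0.34 ± 0.91 for Serpinb2. The test called 0 of 14445 genes there (0%), 255 genes and 0 of the 5 had an unadjusted p under 0.05, and limma on log2(FPKM + 1) called 0 genes and DESeq2 1. Other settings called more genes, 8 with DESeq2 without its outlier filter, 24 with voom quality weights and 121 with the compared groups alone. None of the 5 was among them, but Serpinb2 was not tested with the compared groups alone and so could not be called. DESeq2 with its filter likewise gave 4 of the 5 no adjusted p. Without library 11 the fit again called 0 genes, and the 95% intervals were -0.21 to 0.12 for Plau, -0.10 to 0.08 for Plat, -0.13 to 0.03 for Plaur, -0.07 to 0.14 for Serpine2 and -1.15 to 0.47 for Serpinb2. Serpinb2, with the fewest counts, had the widest interval.

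In empty vector cells, 16 libraries gave log2 changes of -0.96 ± 0.40 (SE) for Plau, -1.61 ± 0.59 for Plat, -0.66 ± 0.28 for Plaur, -1.90 ± 0.66 for Serpine2 and -1.40 ± 0.63 for Serpinb2. Each had an adjusted p of 0.339 by edgeR. All 5 were among the 2120 genes with an unadjusted p under 0.05, and the test called 0 genes (0%). On the same comparison limma on log2(FPKM + 1) called 0 genes, DESeq2 35, voom with quality weights 98 and DESeq2 without its outlier filter 279. None of the 5 was among them, but DESeq2 with its filter gave 4 of the 5 no adjusted p and so could not call them. Library 11 is one of the untreated libraries in this comparison and held the highest level of all 5 transcripts. Without it the changes were -0.04 ± 0.08 for Plau, -0.01 ± 0.04 for Plat, -0.08 ± 0.04 for Plaur, -0.04 ± 0.06 for Serpine2 and 0.20 ± 0.20 for Serpinb2. The lowest adjusted p among the 5 was then 0.390 and 0 had an unadjusted p under 0.05, beside 0.24% of all genes called (0.123% higher and 0.116% lower). The 95% intervals without library 11 were -0.21 to 0.13 for Plau, -0.10 to 0.08 for Plat, -0.16 to 0.00 for Plaur, -0.17 to 0.08 for Serpine2 and -0.23 to 0.62 for Serpinb2.

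The difference of the responses (empty vector minus lentivirus) was tested as an interaction. With 16 libraries it was -0.92 ± 0.57 (SE) for Plau, -1.60 ± 0.82 for Plat, -0.61 ± 0.40 for Plaur, -1.94 ± 0.91 for Serpine2 and -1.06 ± 1.13 for Serpinb2, with adjusted p from 0.658 to 0.711 by edgeR. The test called 0 genes (0%) and 0 of the 5 had an unadjusted p under 0.05, while DESeq2 called 14 genes, though it gave none of the 5 an adjusted p, and limma on log2(FPKM + 1) called 0. Voom with quality weights called 21 genes and DESeq2 without its outlier filter 22, with none of the 5 among them. Without library 11 the differences ran from -0.07 ± 0.08 for Serpine2 to 0.54 ± 0.44 for Serpinb2, with 0 of the 5 called beside 0.192% of all genes (0.0685% higher and 0.123% lower).

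**Figure D3:**
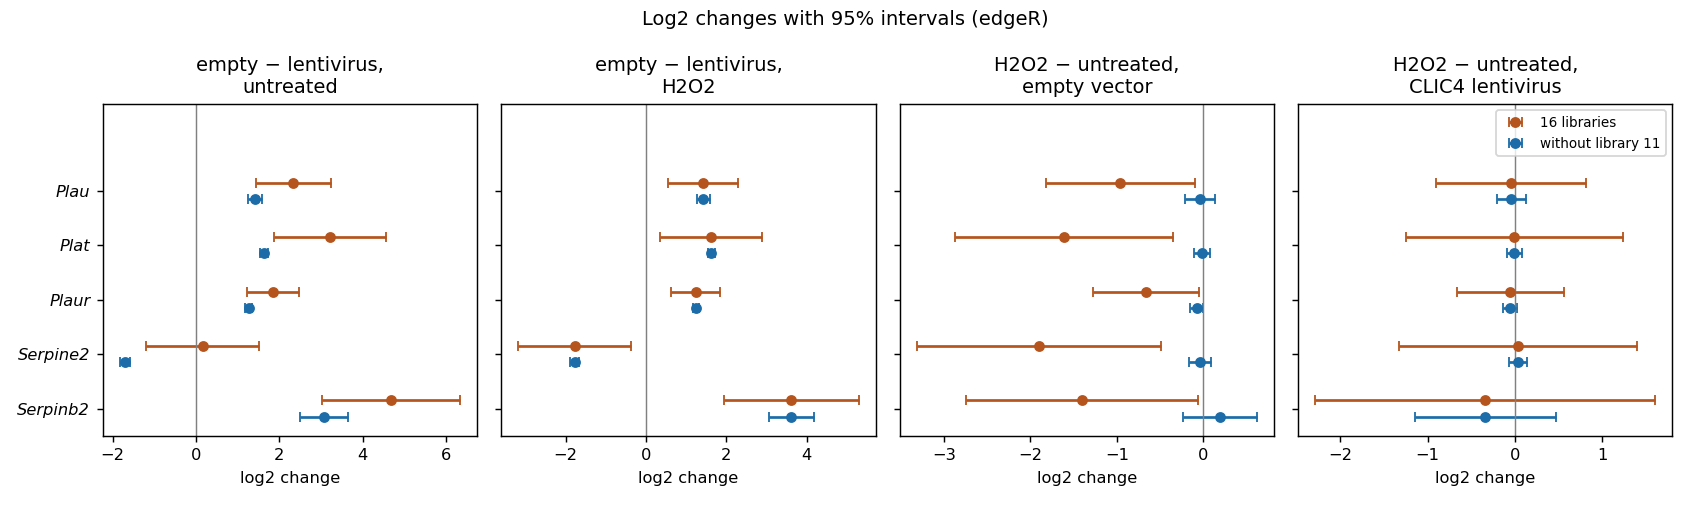
Log2 change of each gene with its 95% interval from edgeR in the vector comparisons (empty vector minus lentivirus) and the treatment comparisons (H2O2 minus untreated), with 16 libraries in orange and without library 11 in blue. In treated cells both fits give nearly the same value and the 16-library intervals are wider, whereas in untreated cells and in the empty vector response leaving out library 11 moves every gene.

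Library 11 was above the other untreated empty vector libraries (9, 10 and 12) in all 5 transcripts, and its size depends on the scaling. On CPM with TMM scaling, which corrects for composition, its ratio to their mean was 4.58 for Plau, 9.11 for Plat, 3.01 for Plaur, 11.6 for Serpine2, 9.31 for Serpinb2 and 3.25 for Clic4. On FPKM the ratios were 3.19, 6.36, 2.20, 8.42, 6.45 and 2.26 in the same order. The TMM factor of this library was 0.721, and the others lay between 0.986 and 1.04. Among all tested genes, 94.7% had a smaller TMM-scaled ratio than Plau, 97.7% than Plat, 90.5% than Plaur, 98.2% than Serpine2 and 97.8% than Serpinb2. What sets this library apart was not tested.

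For each gene, the 3 genes with the highest Pearson correlation of log2 CPM over the 16 libraries were listed as a description. They were Ehd4 (0.9979), Stip1 (0.9967) and Tmem183a (0.9966) for Plau, and Prkab1 (0.9986), Sgms2 (0.9985) and Stip1 (0.9980) for Plat. For Plaur they included Specc1 (0.9983) and Dusp4 (0.9981). For Serpine2 they were Tle1 (0.9961), Aqp1 (0.9953) and Rybp (0.9953), and for Serpinb2 Lipn (0.9936), Dusp14 (0.9925) and Odc1 (0.9924). Stip1, a co-chaperone, was the 1 gene listed for both activators. The points share the vector groups and library 11, and without that library the correlations of the genes named here were between 0.988 and 0.9976.

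The genes that surround these 5 in the pathway were taken from 9 lists of 80 genes, of which 70 were in the table and 49 had enough counts to be tested. In untreated cells 29 of the 49 were called higher and 11 lower with the empty vector, beside 29% and 24.3% of all tested genes. In treated cells 23 were higher and 11 lower, beside 22.1% and 20%. Without library 11, 50 were tested, with 32 higher and 13 lower untreated, beside 37% and 37.3% of all genes, and 30 higher and 13 lower treated, beside 36.6% and 37.2%. These shares are the background for each list, and list genes are given from 16 libraries unless stated otherwise. None was called in either treatment comparison or in the difference of the responses, with or without library 11. Of the 7 genes for plasminogen itself, its activators in blood and the plasmin inhibitors, 0 were tested, and plasminogen (Plg) had at most 1 count in any library.

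Cell surface plasminogen binders differed by small amounts. Of 5 tested, 3 were called higher and 1 lower in untreated cells and 2 higher in treated cells with 16 libraries, with median log2 differences of 0.19 and 0.13, beside 0.03 and -0.01 over all tested genes. Without library 11, 3 were higher and 1 lower untreated and 3 higher treated, with medians of 0.17 and 0.13. Anxa2 and S100a10, the 2 chains of the annexin complex that binds plasminogen, rose by 0.32 (adjusted p 9.82e-05 by edgeR) and 0.19 (0.0297) in untreated cells. Eno1, a glycolytic enzyme that also binds plasminogen at the surface, was higher by 0.24 (0.00732). The plasminogen receptor Plgrkt was lower by log2 -0.45 (0.00622) in untreated cells and at 0.01 (0.939) in treated cells.

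The genes listed under endocytic and clearance receptors, only some of which take up protease-inhibitor complexes, split in direction. Of 8 tested, 5 were higher and 3 lower in untreated cells, and 3 higher and 3 lower in treated cells, with median log2 differences of 0.60 and 0.14. Without library 11, 5 were higher and 3 lower untreated (median 0.42) and 4 higher and 3 lower treated (median 0.14). Sorl1, a sorting receptor of this family, was at log2 -2.36 (adjusted p 6.03e-06 by edgeR) and Vldlr, which clears urokinase complexes, at -1.40 (0.000843) in untreated cells. Igf2r, which binds mannose 6-phosphate and the urokinase receptor, was at 1.20 (0.00198), and at 0.70 (8.87e-05) without library 11. In treated cells Igf2r was at 0.40 both with 16 libraries (0.259) and without library 11 (0.00408). Lrp8 was at 1.14 (0.0114), and at 1.46 without library 11.

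Among vitronectin, integrins and other partners of the urokinase receptor, 7 of 8 tested were called higher and 1 lower in untreated cells, and 4 higher and 1 lower in treated cells, with medians of 0.84 and 0.38. Without library 11 the untreated counts were again 7 and 1, with a median of 0.44, and in treated cells 6 were higher and 1 lower, with a median of 0.38. The integrin chains Itgb1 and Itga3 were called higher in treated cells without library 11, at 0.15 and 0.32, and not with 16 libraries. Itga5, the fibronectin receptor's alpha chain, was higher by 1.65 on the log2 scale (adjusted p 5.7e-05 by edgeR) and by 1.19 without library 11. Itgav, the alpha chain that pairs into vitronectin receptors, was higher by 0.97 (1.78e-06). Itgb5, a beta chain that pairs with it, was lower by log2 -4.53 (3.57e-12), from 104 ± 1.35 FPKM (SD, n = 4) in untreated lentivirus cells to 4.51 ± 0.72 (n = 3, without library 11) in empty vector cells. Egfr, the epidermal growth factor receptor, was higher by 2.19 (0.0129) with 16 libraries and by 0.36 (0.00033) without library 11, in which its FPKM was 26.1, against 2.74 ± 0.28 in the other 3 libraries of its group.

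Other lists were smaller or mixed. Of 4 tested membrane serine proteases and Kunitz inhibitors, 3 were higher in untreated cells, and 3 were higher and 1 lower in treated cells, and some had too few lentivirus counts for a fitted median to be given. Without library 11, 5 were tested, with 4 higher untreated and 4 higher and 1 lower treated. Hpn (hepsin), which can activate pro-urokinase, was higher by 2.65 (adjusted p 1.77e-06 by edgeR) in untreated cells, at 1.46 ± 0.27 FPKM (SD, n = 4) with the lentivirus and 10.7 ± 1.61 (n = 3, without library 11) with the empty vector. Of 10 other serpins, 4 were higher and 2 lower in both conditions, with medians of 0.57 and 0.13. The genes called higher differed, with Serping1 and Serpinc1 in untreated cells and Serpinh1 and Serpinb6b in treated cells beside Serpinf1 and Serpinb6a in both. Without library 11, 5 were higher and 3 lower in both conditions, with medians of 0.09 and 0.13. In untreated cells Serpini1 then turned from 3.17 (adjusted p 0.0617 by edgeR) to -2.64 (9.41e-05), and Serpinc1 from 2.84 (0.0441) to -0.72 (0.196). The serpins and integrin chains outside the naming rule were named after their values were seen. The protease inhibitors Serpinb1a and Serpinb8 were at log2 -0.96 (0.000182) and -0.84 (0.000205), and Serpinb6a was at 0.71 (8.57e-05). Of 4 Ly6/uPAR domain proteins, relatives of the urokinase receptor in fold, 2 were higher and 1 lower in both conditions, with medians of 0.25. Without library 11 the counts were the same, with medians of 0.06 untreated and 0.24 treated. The called genes were Ly6e at 0.62 (0.000507), Ly6a at 0.43 (0.00131) and Ly6c1 at -0.24 (0.0248).

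Growth factors whose precursors plasmin or the activators can cut, and regulators of coagulation, changed in both directions. Of 4 tested growth factors, 2 were higher and 2 lower in both conditions, with medians of -0.45 and -0.60, and without library 11 the counts were the same, with medians of -0.62 and -0.60. Pdgfc, whose latent form tissue plasminogen activator cleaves, was lower by log2 -3.13 (adjusted p 4.34e-10 by edgeR), from 19.97 ± 0.63 FPKM (SD, n = 4) to 2.50 ± 0.30 (n = 3, without library 11) in untreated cells. Its change was thus opposite in sign to that of Plat. Tgfb2 was at -1.27 (0.000357), Tgfb1 at 0.38 (0.00064) and Mst1, the macrophage-stimulating protein, at 3.18 (1.1e-07). Of 6 tested coagulation genes, 3 were higher and 1 lower in both conditions, with medians of 0.53 and 0.47. Without library 11, 4 were higher and 2 lower in both, with medians of 0.55 and 0.47. Tfpi, the tissue factor pathway inhibitor, was higher by 2.38 (3.2e-08) and Procr, the protein C receptor, by 0.94 (1.16e-06) in untreated cells.

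**Figure D4:**
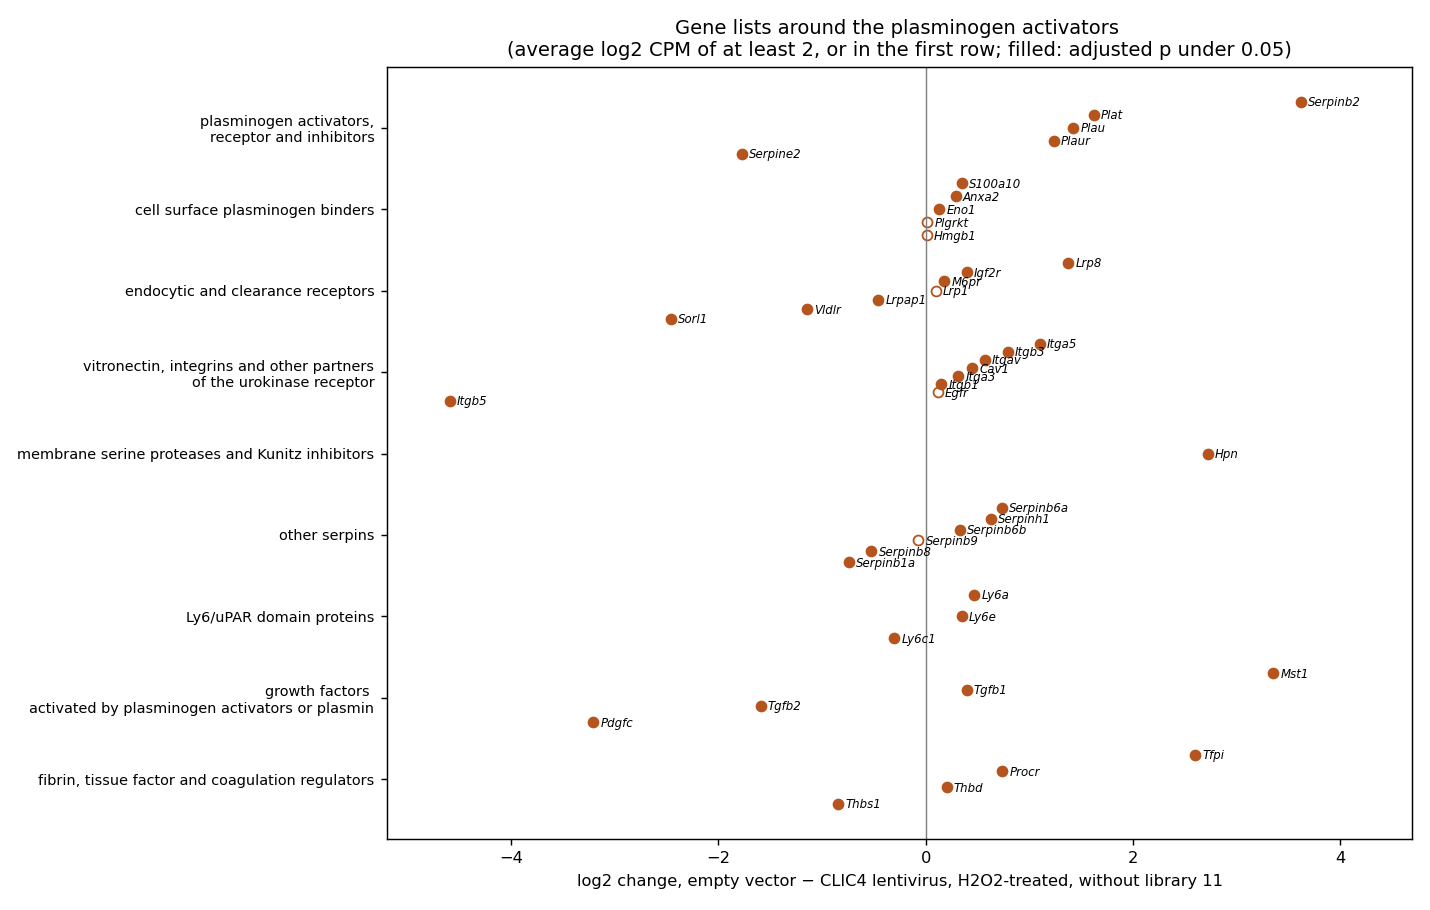
Log2 difference between the vectors (empty vector minus CLIC4 lentivirus) in H2O2-treated cells, without library 11, for the 5 genes and for list genes whose mean log2 CPM was 2 or more. Filled points passed an adjusted p of 0.05 and open points did not, with Itgb5 at -4.59 and Serpinb2 at 3.62 as the ends of the range.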

How the data were processed

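Total RNA was extracted with a Qiagen kit for Illumina sequencing, per the labels' protocols. The submitters' processing notes name cutadapt, STAR, RSEM and mm10. For their versions, the annotation and the strand setting, the sources used here say nothing. The authors deposited whole-number counts for 25745 genes, possibly rounded from RSEM estimates, and FPKM for 25372. Overlapping genes cannot be told apart without known strand. The 5 genes, the lists and the markers were chosen with earlier results of these data known. The main test was edgeR 4.0.16's robust quasi-likelihood F test (R 4.3.3) on the counts, with TMM scaling, filterByExpr and 1 fit of all 16 libraries, checked on simulated data. Calls needed a Benjamini-Hochberg adjusted p under 0.05 over all tested genes. Each SE is the absolute log2 change over the root of F. Alternatives were RLE scaling, DESeq2 1.42.0, no low-count filter, the compared groups alone, limma 3.58.1 on FPKM (pseudocounts 1 and 0.1, genes at 0.5 or more in 4 libraries), voom with quality weights, and each library left out. No pair of libraries within a group had equal counts within sampling noise (lowest chi-square per degree of freedom 5.051), and pairs across groups were not examined. Named list genes were up to 4 per list by largest change among those called in untreated cells whose mean log2 CPM was 2 or more. One gene that the correlation rule listed is not reported here.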

Additional observations from a re-analysis of the deposited data

Results flagged for a closer look

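In each group of 4 libraries, the highest and lowest TMM-scaled CPM were compared with the nearest other library. Of 20 groups examined over the 5 genes, 7 held a library whose gap passed Dixon's limit, which chance passes in about 1 in 20 groups. In untreated empty vector cells, library 11 stood apart in all 5 genes: Plau at 860.0 CPM, Plaur at 247, Plat at 939, Serpine2 at 321 and Serpinb2 at 8.48. In treated lentivirus cells, library 5 was low for Plau at 65.1 CPM. In treated empty vector cells, library 16 was high for Serpinb2 at 1.34 CPM.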

How the results depend on the processing

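Of 232 gene values for the vector comparisons under other settings, 209 kept their call or lack of one. They include Serpine2 in untreated cells with limma on FPKM, where the sign changed without a call. It was at -0.83 with a pseudocount of 1 and -0.87 with 0.1. Serpine2 in untreated cells turned from 0.16 to -1.69 with voom quality weights, which gave library 11 a weight of 0.00767, and to -1.70 without library 11 (-1.70 to 0.474 over fits that left out 1 library). With voom weights, 1 gene was called lower in untreated cells in place of 0. Leaving out single libraries gave 0 to 1 genes called lower in untreated cells and 0 to 1 in treated cells. Serpinb2 in treated cells was 0.60 on log2(FPKM + 1) (limma adjusted p 0.0849). When the treated groups were fitted alone, Plat and Serpine2 had edgeR adjusted p of 1.81e-13 and 1.45e-13. DESeq2 gave no adjusted p to 4 of the 5 genes in 4 comparisons. Without its outlier filter, a setting chosen after seeing the data, it called 4 higher and 0 lower in untreated cells and 4 and 1 in treated cells. Of 341 values for the H2O2 responses and their difference, 0 were called and 12 changed sign. Genes called over the whole table in treated cells went from 6079 to 10779 without library 11 and 10491 with the compared groups alone. In untreated cells they went from 7700 to 4426 with those groups alone. The cause was not tested. Serpinb2 is limited by counts of 2 to 7 per lentivirus library. No paired analysis was possible because no library number is shared by groups.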
